A study of Mus musculus with 17 samples.

Results

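The replication-dependent histone genes were described across 8 groups of mouse total RNA libraries made from ID8 ovarian cancer cells, the tumours grown from them and healthy organs. Members were chosen by symbol and by count: each gene had a symbol of the form Hist1h to Hist4h and at least 10 reads summed over the 17 libraries. Of 43629 genes in the deposited table, 70 had such a symbol and 65 reached the minimum. By symbol, they comprised 6 genes for histone H1, 17 for H2A, 19 for H2B, 10 for H3 and 13 for H4. Of these, 4 are pseudogenes or non-coding in the annotation: Hist1h2aj, Hist1h2al, Hist3h2bb-ps and Hist2h2bb. In all, 55 were of the Hist1 family, 6 of Hist2, 3 of Hist3 and 1 of Hist4. Just inside the minimum was Hist1h2al with 10 reads, and just outside it was Hist1h2aa with 7 reads. Hist2h2aa1, Hist2h2aa2, Hist2h3b and Hist2h3c1 had 0 reads in every library.

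The subcutaneous tumours (2 libraries) came from ID8 cells injected under the skin, on the flanks per the treatment protocol and on the scruff per the tissue label. The second and the first tap of ascites (3 libraries each) were peritoneal fluid with its cells, drawn in turn as the ovarian tumours spread. The intestinal metastases (3 libraries) were solid tumours on the intestine of that same spread. The orthotopic tumours (3 libraries) came from ID8 cells injected into the bursa of the right ovary. Healthy intestine, healthy ovary (both labelled C57BL6) and the cultured ID8 line, an untreated line labelled as mouse ovarian surface epithelium, had 1 library each. No label gave an age, a genetic change or an added agent. None said which libraries shared an animal either, so a p-value here covers the spread among the libraries alone, which may be technical, and solid samples held host tissue as well as tumour cells.

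Replication-dependent histone genes supply the core histones H2A, H2B, H3 and H4, around which DNA is wound, and the linker histone H1, which sits where DNA enters and leaves that particle. Their genes lie in clusters and are transcribed mainly in S phase, when new DNA has to be packed. Most of their mRNAs carry no poly(A) tail and end in a short stem-loop, which the protein Slbp binds. RNA selected by its tail therefore misses most of these transcripts, whereas total RNA, as used here, retains them. A few histone genes are also reported to give polyadenylated transcripts outside S phase.

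The stem-loop is the sequence that sets these mRNAs apart. A stem-loop of 16 bases was found in the annotated transcripts of 43 of the 65 members in GENCODE M21 on the GRCm38 assembly, and in 51 of all 21901 protein-coding genes, which is 0.233%. Of those 51 genes, 46 were of the symbol pattern. The lines below show it for some of the more abundant members and for members with a different pattern. The stem-loop is in capitals, with up to 5 bases on either side in lower case.
Hist1h1e (chromosome 13, H1): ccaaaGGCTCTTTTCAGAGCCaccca
Hist1h1d (chromosome 13, H1): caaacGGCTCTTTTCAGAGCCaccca
Hist1h2bg (chromosome 13, H2B): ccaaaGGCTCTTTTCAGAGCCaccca
Hist1h3f (chromosome 13, H3): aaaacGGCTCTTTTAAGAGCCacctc
Hist1h4d (chromosome 13, H4): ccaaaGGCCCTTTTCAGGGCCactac
Hist2h4 (chromosome 3, H4): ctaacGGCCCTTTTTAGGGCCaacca
Hist4h4 (chromosome 6, H4): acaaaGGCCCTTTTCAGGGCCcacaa
Hist3h2ba (chromosome 11, H2B): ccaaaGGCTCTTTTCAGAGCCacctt
Hist1h4m (chromosome 13, H4): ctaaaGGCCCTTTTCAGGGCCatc
The annotated transcript ended within 100 bases after the stem-loop for 21 members and ran on past it for 22. For the other 22, the annotation held no stem-loop, often because it stopped at the coding sequence.

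Promoters were matched in the RefSeq table (GRCm38.p6) for 56 members. The promoters below, 1 for each histone type and then that of Hist1h4m, show the 120 bases before the annotated start, with motifs on either strand in capitals. They are of members that fell together against the cell line, except Hist1h4m, which did not.
Hist1h1e: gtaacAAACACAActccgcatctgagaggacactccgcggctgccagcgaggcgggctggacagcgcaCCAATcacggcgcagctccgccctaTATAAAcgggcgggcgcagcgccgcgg
Hist1h2ak: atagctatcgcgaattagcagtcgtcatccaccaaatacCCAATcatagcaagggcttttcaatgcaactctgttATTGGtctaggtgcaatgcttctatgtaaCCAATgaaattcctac
Hist1h2bg: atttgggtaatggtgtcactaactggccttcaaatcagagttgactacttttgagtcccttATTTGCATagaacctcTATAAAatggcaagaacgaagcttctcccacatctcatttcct
Hist1h3e: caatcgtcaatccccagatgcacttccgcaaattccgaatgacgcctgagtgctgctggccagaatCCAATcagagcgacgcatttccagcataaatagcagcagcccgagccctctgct
Hist1h4k: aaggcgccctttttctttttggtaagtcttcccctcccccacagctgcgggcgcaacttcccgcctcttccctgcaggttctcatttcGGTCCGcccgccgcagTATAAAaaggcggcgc
Hist1h4m: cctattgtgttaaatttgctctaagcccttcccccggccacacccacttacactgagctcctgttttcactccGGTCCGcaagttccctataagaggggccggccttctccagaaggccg
Motifs were searched on both strands in the 250 bases before the start. CCAAT was in the promoters of 6 of 6 H1 genes, 14 of 14 H2A, 16 of 16 H2B, 7 of 8 H3 and 3 of 12 H4, against 33.8% of all 32851 promoters. The octamer ATTTGCAT was in 6 of 14 H2A and 6 of 16 H2B promoters and in none of the H1, H3 or H4 promoters, against 1.60% of all. AAACACAA, the H1 box, was in 4 of 6 H1 promoters (1.67% of all), and GGTCCG, part of the H4 subtype element, was in 9 of 12 H4 promoters (6.72% of all). TATAAA was in 28 of 56 members (12.4% of all). These matches describe letters and not bound sites.

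Near-identical copies limit what can be said of single members. The median member shared 47.0% of its 50-base words with another annotated gene. By type, that median was 1.12% for H1, 67.6% for H2A, 43.8% for H2B, 57.2% for H3 and 39.5% for H4. In 29 members over 50% of the words were shared, and 4 shared none. The 4 genes with 0 reads shared from 79.7% (Hist2h3b) and 89.4% (Hist2h2aa2) to 100% (Hist2h2aa1 and Hist2h3c1). Moreover, 5 members overlapped another gene on the same strand, Hist1h1e and Hist1h2be each other, and 19 overlapped a gene on the opposite strand. The exons annotated for Hist1h1d together cover 7425 bases and those for Hist1h2be 4446 bases, so both can collect reads that shorter models cannot. Sums by histone type are therefore given beside single genes, and how the authors' counting treated reads shared by copies is not given in the sources used here.

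The smallest library held 12031221 counts, the median one 27342134 and the largest 38902048. Values below are in CPM, counts scaled to a common library size, here by edgeR's trimmed mean of M values (TMM). Subcutaneous tumour 3, the first tap 3 and the second tap 1 stood apart with 32775 to 33393 genes with a count, against 21157 to 26838 in the other libraries. The sum over olfactory receptor genes, a family of sensory neurons, was 405, 173 and 161 CPM in those 3 libraries and 7.97 to 112 CPM in the others. Reads of mitochondrial genes made up 14% and 10.7% in subcutaneous tumours 2 and 3 and 2.27% to 8.30% elsewhere. The labels of the organs fitted their markers: the follicle list summed to 1516 CPM in healthy ovary and the intestinal epithelium list to 5998 CPM in healthy intestine. The epithelial list summed to 1228 CPM in the line with none of its 6 genes at 0, but was higher in both organs and in the metastases, so it does not single out the line. In bulk samples such as these, fewer cells of a type and less RNA per cell cannot be told apart.

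Histone RNA was most abundant in the cultured line and least abundant in subcutaneous tumours. The 65 members summed to 458 and 373 CPM in subcutaneous tumours, to 761, 620 and 1053 CPM in the second tap and to 693, 965 and 903 CPM in the first tap. Intestinal metastases had 635, 1098 and 1031 CPM and orthotopic tumours 1590, 1330 and 1091 CPM. Healthy intestine had 1185 CPM, healthy ovary 1292 CPM and the cell line 3288 CPM. Every tumour and ascites library thus held less histone RNA than the line. Both subcutaneous tumours lay below every other library. The taps overlapped with each other and with the metastases, and the highest metastasis (1098 CPM) lay just above the lowest orthotopic tumour (1091 CPM).

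Relative to the line, the summed histone level was 12.6% in subcutaneous tumours, 24.7% in the second tap, 26.0% in the first tap, 28.0% in intestinal metastases and 40.7% in orthotopic tumours. The means were 415 ± 60.1 CPM in subcutaneous tumours (SD, n = 2), 811 ± 221 in the second tap, 854 ± 143 in the first tap, 921 ± 250 in the metastases and 1337 ± 249 CPM in orthotopic tumours (SD, n = 3 each). Among neighbours in that order, the second tap, the first tap and the metastases differed by less than their SDs. The sums carry no test, since their members were picked together.

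**Figure D1:**
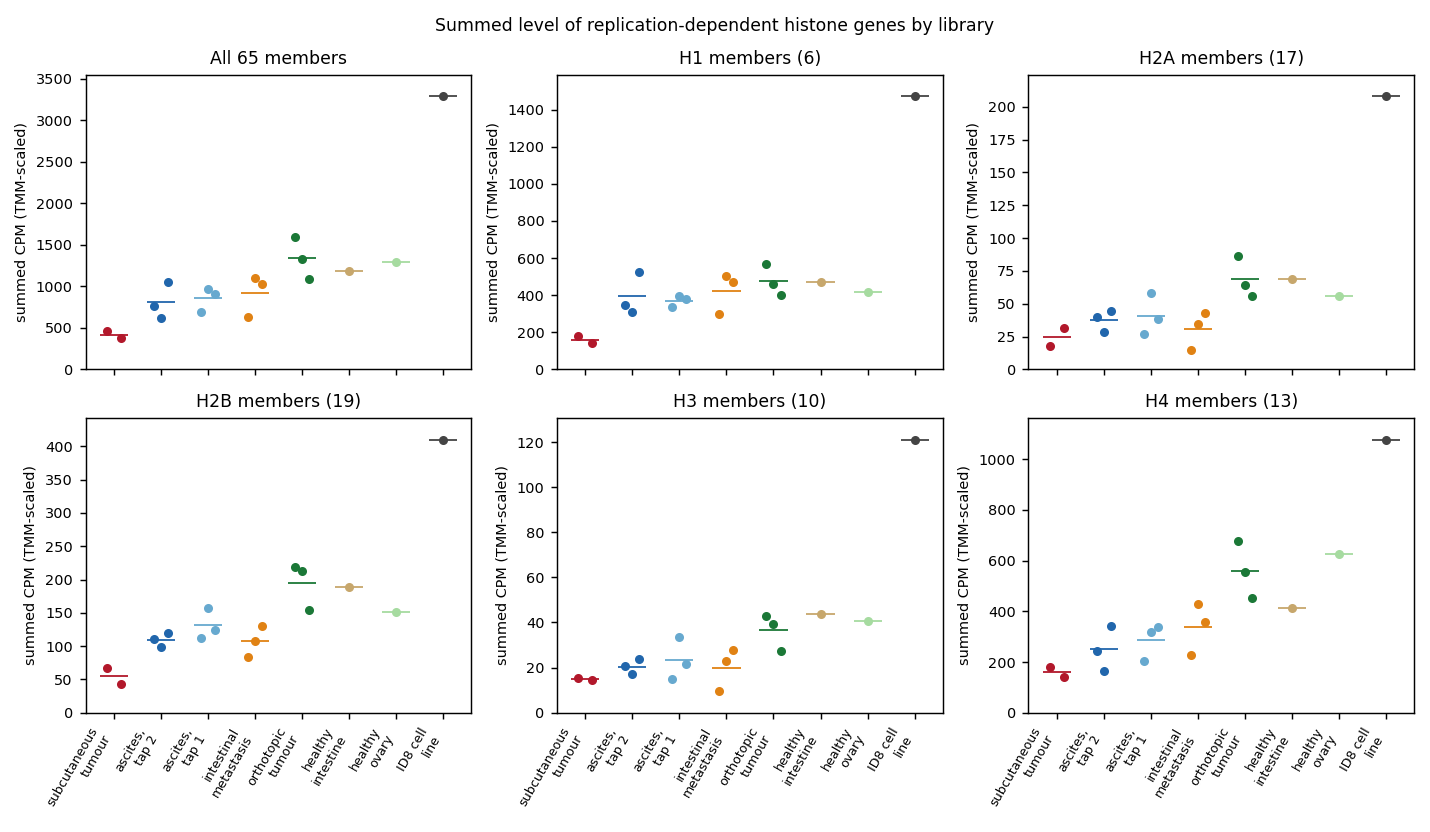
Summed TMM-scaled CPM (vertical axis, linear, from 0) of all 65 members and of each histone type in each library, by group; points are libraries and lines are group means. For all members, the 2 subcutaneous tumours are at 458 and 373 CPM and the cell line, the highest in every panel, at 3288 CPM.

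H1 and H4 genes carried most of the histone reads in every library. H1 genes took 32.3% to 50% of histone reads over the 17 libraries, H4 genes 26.7% to 48.5%, H2B genes 9.86% to 16.3%, H2A genes 2.28% to 8.49% and H3 genes 1.49% to 3.87%. H1 shares were 45.6% to 50% in the second tap, 41.3% to 48.2% in the first tap and 45.7% to 46.9% in the metastases. They were 34.5% to 36.9% in orthotopic tumours and 44.7% in the line, so the taps and the metastases each lay above every orthotopic tumour. Conversely, the H4 share was 41.3% to 42.5% in orthotopic tumours and 26.7% to 39.0% in the 9 tap and metastasis libraries.

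In the ascites and the metastases, the H1 sum was nearer to the orthotopic level than the sums of H2A and H4. Against orthotopic tumours, the H1 sum was 82.7% in the second tap, 77.9% in the first tap and 89.2% in the metastases. The H4 sum was 44.6%, 51.2% and 60.4% of the orthotopic level in the second tap, the first tap and the metastases, and the H2A sum 54.7%, 59.4% and 44.4%. Subcutaneous tumours had 33.6% of the orthotopic H1 sum, 35.6% of the H2A, 28.1% of the H2B, 40.6% of the H3 and 28.7% of the H4 sum. All these subcutaneous sums lay below every orthotopic library. The H1 sums of the second tap (310 to 523 CPM) and of the metastases (298 to 504 CPM) overlapped with orthotopic tumours (402 to 566 CPM).

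Per kilobase of annotated exon, the most abundant members on average over all libraries were the H4 gene Hist1h4d (133 CPM per kb), the H1 gene Hist1h1b (110 CPM per kb), the H4 gene Hist1h4h (77.2 CPM per kb) and the H1 gene Hist1h1c (72.4 CPM per kb). In the line, Hist1h1b had 454 CPM per kb and Hist1h4d 413 CPM per kb. Of H2A genes, Hist1h2ak led with 60.6 CPM per kb, of H2B genes Hist1h2bn with 59.3 and of H3 genes Hist1h3e with 10.1 CPM per kb. Within a type, counted reads were concentrated in few genes: Hist1h2ak took a median of 42.4% of H2A reads, Hist1h4d 36.1% of H4 reads and Hist1h3f 33.3% of H3 reads. These genes share fewer 50-base words than the median of their type. The shares are 52.3% for Hist1h2ak (H2A median 67.6%), 10.2% for Hist1h4d (H4 39.5%) and 49.3% for Hist1h3f (H3 57.2%). The part of shared sequence in the concentration was not tested. Of the 65 members, 58 passed the filter on low counts and were tested. Hist1h1t, Hist1h2al, Hist1h2ap, Hist1h2ba, Hist1h2br, Hist2h2bb and Hist1h4b, with 10 to 122 reads in all, did not. Since the filter asks for over 0.5 CPM in at least 2 libraries, the tested genes do not stand for all members.

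**Figure D2:**
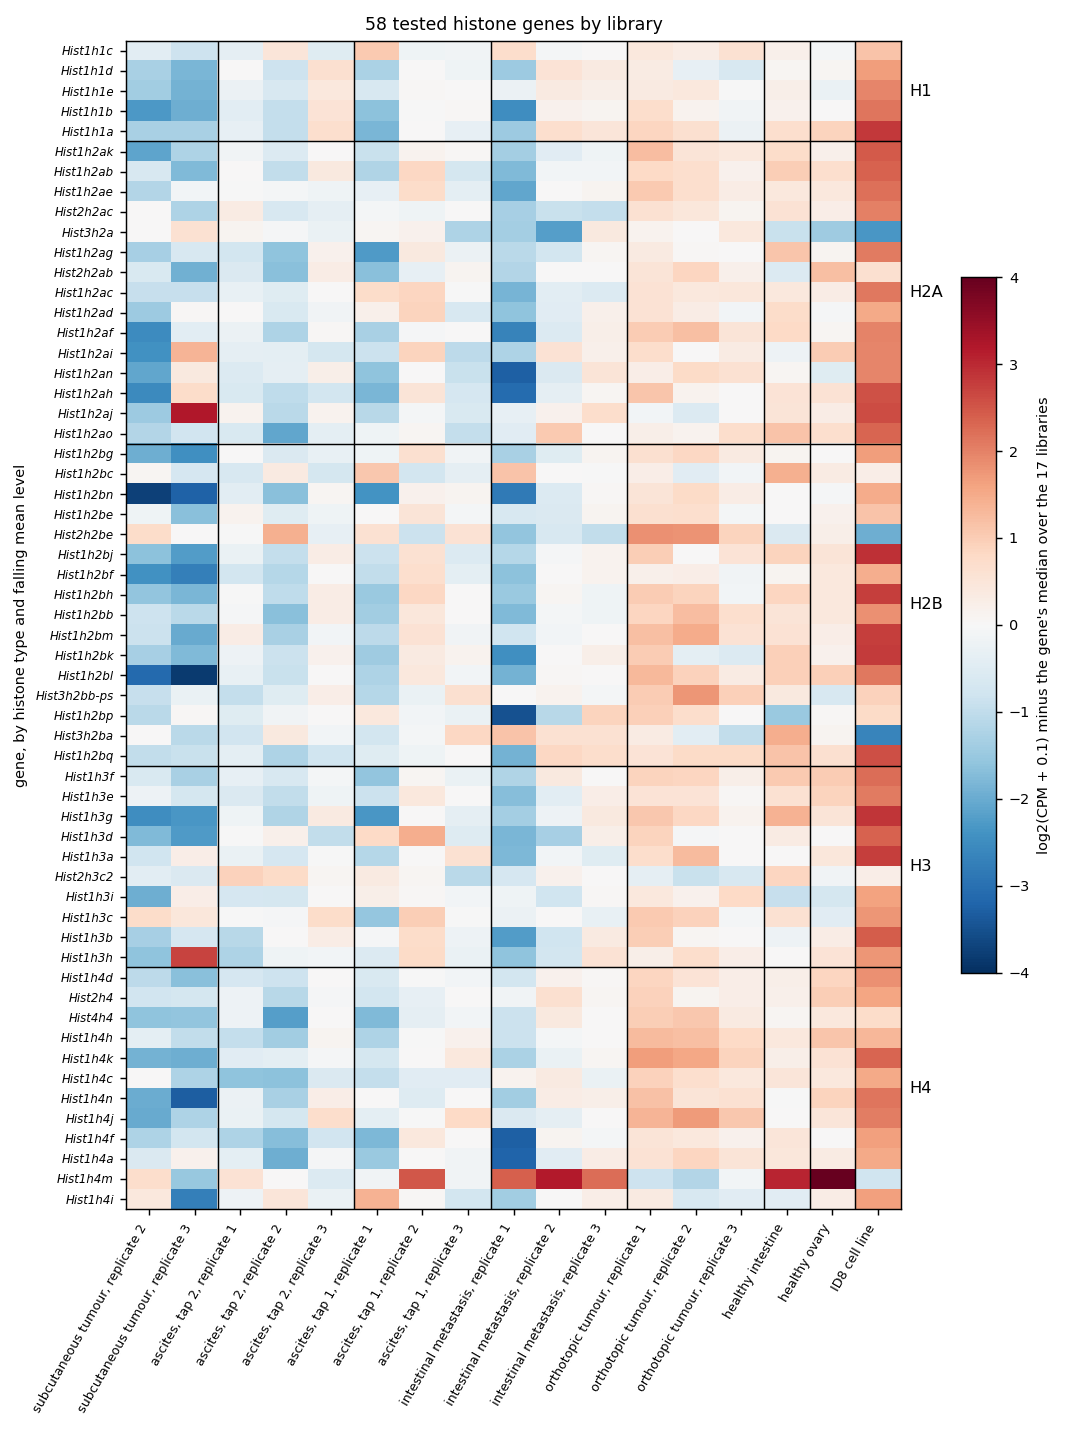
Level of the 58 tested members (rows, by type and falling mean) in the 17 libraries (columns, by group), as log2(CPM + 0.1) minus the gene's median over the libraries; red is above and blue below that median. The cell line column is red for most members, the subcutaneous columns are mostly blue, and Hist1h4m, Hist2h2be, Hist3h2a and Hist3h2ba break that pattern.

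Against the line, most histone genes that changed in the tumours and ascites were lower. In subcutaneous tumours 27 members fell and 1 rose, in the second tap 12 fell and none rose, in the first tap 11 fell and 1 rose, in the metastases 22 fell and 1 rose, and in orthotopic tumours 1 fell and none rose (edgeR's quasi-likelihood test, adjusted p under 0.05 over 22671 genes). The share of all genes that fell was 3.23% in subcutaneous tumours, 1.27% in the second tap, 1.11% in the first tap, 5.63% in the metastases and 0.834% in orthotopic tumours. The share that rose was 6.25%, 3.16%, 3.11%, 9.55% and 2.37% in that order. The 5 comparisons share 1 library of the line, which is assumed to vary like the replicated groups and has no replicate check.

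The median log2 fold change of the 58 members against the line was −2.83 in subcutaneous tumours (all genes 0.60), −2.28 in the second tap (all genes 0.53), −2.04 in the first tap (all genes 0.55), −2.21 in the metastases (all genes 0.41) and −1.35 in orthotopic tumours (all genes 0.24). In 46 of the 58 members the line was the highest of all 17 libraries, which held for 11.8% of all genes tested. The counts of members called lower moved with single libraries, as did those of all genes, of which the share that was lower is given in brackets. In the second tap, 1 member was called without library 1 (0.191%) and 5 without library 2 (0.794%). In the first tap, 6 were called lower without library 1 (1.3%) and 5 without library 3 (0.694%). Without subcutaneous tumour 2, 13 were called in that group (0.846%). In the metastases 11 were called lower without metastasis 1 (2.79%) and 12 without metastasis 2 (2.68%). The 3 libraries of most detected genes were also left out, a choice made after seeing the data. Then 7 were called lower in the second tap (0.641%), 6 in the first tap (0.842%) and 0 in orthotopic tumours (1.09%). Leaving out any 1 orthotopic tumour left none there (0.142%, 0.199% and 0.221%).

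**Figure D3:**
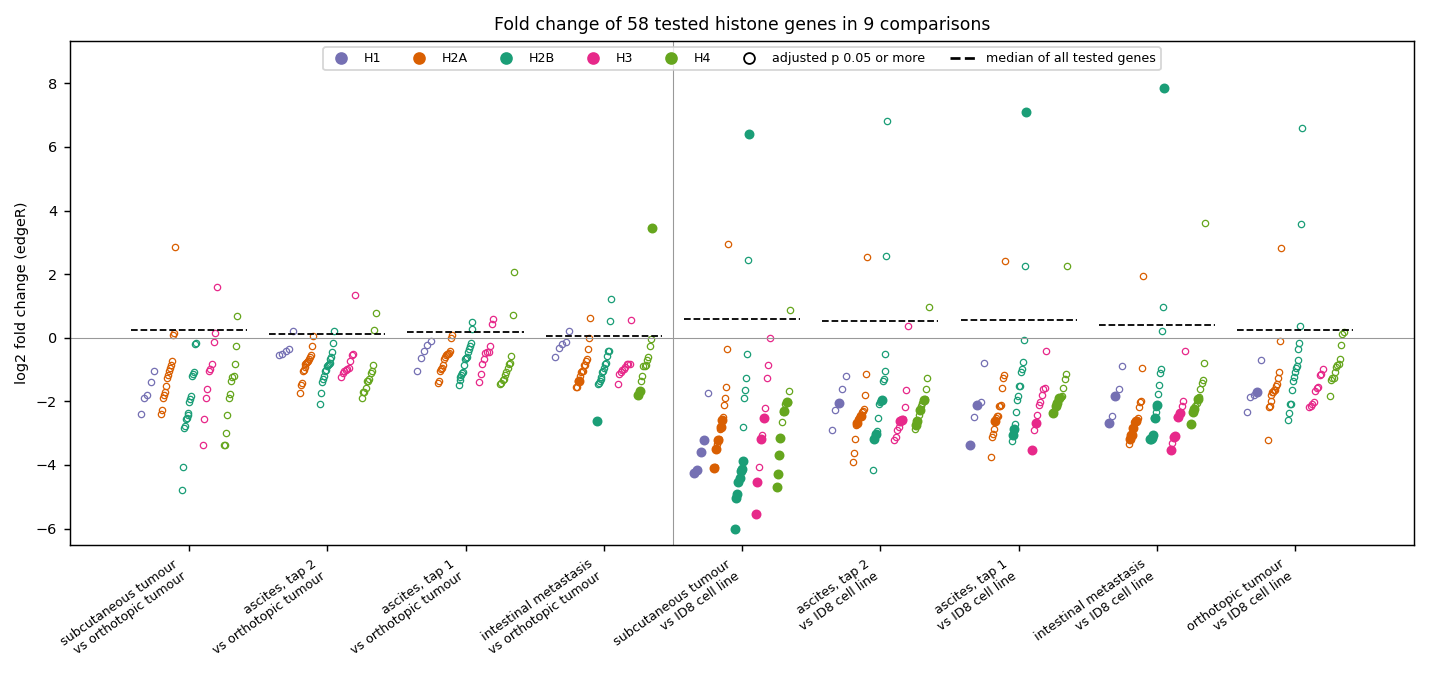
Log2 fold change (vertical axis, edgeR) of the 58 tested members in 9 comparisons, coloured by histone type; filled points have an adjusted p under 0.05 and dashed lines are the median of all tested genes. Most members lie below the dashed line in each comparison, and those far above it in the 5 comparisons with the line include Hist3h2ba, which had no read in the line.

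Hist1h1e, a linker histone gene, was the member that fell in all 5 comparisons with the line. It had 34.0 and 24.2 CPM in subcutaneous tumours, 76.7, 57.8 and 120 CPM in the second tap and 57.1, 92.1 and 89.9 CPM in the first tap. Metastases had 76.2, 115 and 105 CPM, orthotopic tumours 115, 120 and 88.3 CPM, and the line 349 CPM. No library of a tumour or of ascites overlapped with the line. Its log2 fold change was −3.59 ± 0.47 in subcutaneous tumours (SE, adjusted p = 0.00686), −2.04 ± 0.42 in the second tap (0.0216), −2.13 ± 0.41 in the first tap (0.0191), −1.82 ± 0.42 in the metastases (0.0169) and −1.70 ± 0.42 in orthotopic tumours (0.0488, edgeR). The call in orthotopic tumours was lost in 7 of 8 alternatives, and that in the second tap in 1 of 8. Its reads overlap the annotated Hist1h2be, and 32.0% of its 50-base words are shared. The other linker genes called were Hist1h1a in subcutaneous tumours, the first tap and metastases, and Hist1h1b and Hist1h1d in subcutaneous tumours.

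Among core histones, Hist1h2ak, Hist1h2bj, Hist1h2bm, Hist1h3f, Hist1h4d and Hist1h4k fell against the line in subcutaneous tumours, both taps and metastases. Hist1h4d, the leading H4 gene, had 64.2 and 42.1 CPM in subcutaneous tumours, 83.3, 75.2 and 133 CPM in the second tap and 86.3, 131 and 123 CPM in the first tap. It had 80.0, 150 and 136 CPM in metastases and 470 CPM in the line. Those groups did not overlap with the line. Its log2 fold change was −3.14 ± 0.48 in subcutaneous tumours (SE, edgeR adjusted p = 0.00762), and −2.27 ± 0.43, −2.05 ± 0.43 and −1.94 ± 0.43 in the second tap, the first tap and the metastases.

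Hist1h2ak, the leading H2A gene, was at 4.34 and 8.0 CPM in subcutaneous tumours, 17, 12.9 and 18.9 CPM in the second tap, 10.1, 20.8 and 19.7 CPM in the first tap, 7.24, 13.9 and 16.6 CPM in metastases and 105 CPM in the line. Its log2 fold change was −4.08 ± 0.60 in subcutaneous tumours (adjusted p = 0.00707) and −3.05 ± 0.52 in metastases (SE, edgeR adjusted p = 0.00682). Hist1h2bg, an H2B gene, had 5.95 and 4.12 CPM in subcutaneous tumours and 74.9 CPM in the line, a log2 fold change of −3.89 ± 0.55 (adjusted p = 0.00687). In the H3 group, Hist1h3f had 5.47 and 3.34 CPM in subcutaneous tumours and 39.9 CPM in the line (−3.18 ± 0.70, adjusted p = 0.0209). Hist1h4k, of which 71.5% of words are shared with other genes, had 3.39 and 3.29 CPM in subcutaneous tumours and 65.3 CPM in the line (−4.29 ± 0.59, adjusted p = 0.00687).

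Markers of other cell types differed between these groups as well. All 5 macrophage markers in the table rose against the line in both taps, 4 of 5 in subcutaneous tumours and metastases and 3 of 5 in orthotopic tumours. Their sum was 1670 to 3065 CPM in the second tap, 864 to 5486 CPM in the first tap, 249 to 314 CPM in subcutaneous tumours, 186 to 507 CPM in metastases, 202 to 304 CPM in orthotopic tumours and 5.46 CPM in the line, where C1qa, C1qb and Mrc1 were at 0. All 5 endothelial markers rose in subcutaneous tumours, metastases and orthotopic tumours, 3 in the second tap and 4 in the first, and 5 of 6 T cell markers rose in subcutaneous tumours and metastases. The part of host cells in the difference from the line was not tested.

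Set against orthotopic tumours, subcutaneous tumours had lower histone levels with no member past the threshold. In edgeR 0 of 58 members passed, 0.0132% of all genes passed, and the smallest adjusted p of a member was 0.0532. Without adjustment, 31 members were lower (5.51% of all genes) and 1 was higher (15.2% of all genes) at p under 0.05, and DESeq2 called 19 members, all lower, among 10.4% of all genes. The median log2 fold change was −1.57 for the members and 0.25 for all genes. In 42 of 58 members both subcutaneous tumours lay below all 3 orthotopic tumours, which held for 18.1% of all genes, and in none did both lie above (23% of all genes).

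Without subcutaneous tumour 3, 5 members passed, all lower, beside 0.972% of all genes that were lower; the 1 library left in that group is then assumed to vary like the other groups. Hist1h4k had 3.39 and 3.29 CPM in subcutaneous tumours and 41.0, 38.1 and 24.1 CPM in orthotopic tumours, with no overlap. Its log2 fold change was −3.36 ± 0.51 (SE, edgeR adjusted p = 0.0532). For Hist1h2bn, an H2B gene, subcutaneous tumours had 1.74 and 2.50 CPM and orthotopic tumours 34.8, 41.9 and 30.2 CPM.

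The 2 subcutaneous libraries differed from each other in host markers. The B cell list (6 genes) summed to 2011 CPM in subcutaneous tumour 2 and 8.88 CPM in tumour 3, against 2.33 to 7.16 CPM in orthotopic tumours. The adipocyte list (4 genes) summed to 4093 and 18.0 CPM in subcutaneous tumours 2 and 3, against 18.5 to 244 CPM in orthotopic tumours, and the keratinocyte list (5 genes) to 47.1 and 615 CPM against 6.87 to 8.61 CPM. None of these markers was at 0 throughout either group, and no gene of these 3 lists passed against orthotopic tumours. Histone sums were low in both libraries, and the part of these cells in that was not tested. Hist1h2aj, a pseudogene in the annotation, and the H3 gene Hist1h3h ran against the group in tumour 3. They had 0.0434 and 3.49 CPM, and 0 and 1.87 CPM, in subcutaneous tumours 2 and 3, against 0.166 to 0.289 and 0.260 to 0.399 CPM in orthotopic tumours.

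Relative to orthotopic tumours, both taps had lower H4 sums, at 165 to 342 CPM in the second tap, 204 to 339 CPM in the first tap and 451 to 676 CPM in orthotopic tumours, with no member past the threshold. In the second tap 0 members passed (1.09% of all genes), 12 were lower (6.14% of all genes) and 1 higher (10.1%) at an unadjusted p under 0.05, and DESeq2 called 6 (9.92% of all genes). In the first tap 0 passed (1.58% of all genes), 12 were lower (6.90% of all genes) and 1 higher (12%) without adjustment, and DESeq2 called 2 (11.7% of all genes). All 3 second-tap libraries lay below all orthotopic tumours for 30 of 58 members (12.5% of all genes), and all 3 first-tap libraries for 23 (11% of all genes). Both taps share the orthotopic libraries as their reference.

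Hist1h4c, an H4 gene, had 4.0, 3.95 and 8.19 CPM in the second tap, 6.30, 9.07 and 9.10 CPM in the first tap, and 23.6, 19.8 and 16.7 CPM in orthotopic tumours. Neither tap overlapped with the orthotopic tumours. Its log2 fold change was −1.90 ± 0.41 in the second tap (SE, edgeR adjusted p = 0.0504) and −1.30 ± 0.40 in the first tap (adjusted p = 0.116). Macrophage markers were higher than in orthotopic tumours, with 4 of 5 past the threshold in the second tap and 3 of 5 in the first. Endothelial markers fell in 3 of 5 genes in the second tap and 4 of 5 in the first, with sums of 27.4 to 56.5 CPM in the second tap, 28 to 50.7 CPM in the first tap and 267 to 488 CPM in orthotopic tumours. Fibroblast markers fell in 1 of 6 and 3 of 6 genes. The part of these cells was not tested.

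Between the second and the first tap, no histone gene passed the threshold. edgeR called 0 of 58 members and 0% of all genes, no member had an unadjusted p under 0.05 (0.640% of all genes), and DESeq2 called no member (0.00443% of all genes). The summed level in the second tap was 95% of that in the first, and the libraries overlapped; without second tap 2 the log2 ratio turned to 0.09. With 3 libraries a tap and sums of 620 to 1053 CPM in the second tap, small differences were not detectable.

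Between intestinal metastases and orthotopic tumours, 5 of 58 members passed, beside 15.5% of all genes. Of these members 4 fell, beside 5.13% of all genes, and 1 rose, beside 10.4% of all genes. With both directions pooled, histone genes were thus called less often than genes in general, but this did not hold among the genes that fell. The shares rest on 5 calls and carry no test. The median log2 fold change was −0.88 for the members and 0.06 for all genes. Hist2h2be, an H2B gene reported to give polyadenylated transcripts, fell furthest. It had 2.52, 4.84 and 3.81 CPM in metastases and 27.3, 27.1 and 14.3 CPM in orthotopic tumours, with no overlap. Its log2 fold change was −2.61 ± 0.57 (SE, edgeR adjusted p = 0.0119), and it was called in all 13 alternatives. Hist1h4k (−1.79 ± 0.40, adjusted p = 0.013), Hist1h4j (−1.68 ± 0.44, 0.0256) and Hist1h2ak (−1.36 ± 0.41, 0.0426) fell as well in edgeR. The call of Hist1h2ak was lost in 9 of 13 alternatives, that of Hist1h4j in 4 and that of Hist1h4k in 2.

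Hist1h4m went the other way, with 7.35, 12.7 and 6.51 CPM in metastases and 0.701, 0.532 and 1.21 CPM in orthotopic tumours. It rose by 3.44 ± 0.87 on the log2 scale (SE, edgeR adjusted p = 0.0216), and its groups did not overlap. The call was lost when orthotopic tumour 1 or 2 or metastasis 1 or 2 was left out. Without orthotopic tumour 1 or metastasis 2, 1 member was called in all, beside 6.33% and 6.06% of all genes, and without orthotopic tumour 2 or metastasis 1, 2 were, beside 5.36% and 7.31%. All 3 metastases lay below all orthotopic tumours for 24 of 58 members (20.5% of all genes) and above them for 2, Hist1h4m and Hist3h2ba (24.4% of all genes). Of 7 intestinal epithelium markers, 6 rose in the metastases, with a sum of 2079 to 7061 CPM there, 52.6 to 141 CPM in orthotopic tumours, where Olfm4 was at 0, and 5998 CPM in healthy intestine. All 6 T cell markers rose too, with sums of 77.8 to 302 CPM in metastases and 2.99 to 8.28 CPM in orthotopic tumours, and 2 of 7 ovarian follicle markers fell, with sums of 2.1 to 10.4 CPM and 249 to 457 CPM. The part of these cells in the histone differences was not tested.

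No histone gene passed between a tumour and its healthy host organ. The orthotopic sum was 103% of that of healthy ovary and the metastasis sum 77.7% of that of healthy intestine, each against a single library. The orthotopic sum fell short of that of ovary when orthotopic tumour 1 was left out (log2 ratio −0.09). In edgeR 0 members passed between orthotopic tumours and ovary (0.600% of all genes), 1 had an unadjusted p under 0.05 (11.2% of all genes), and DESeq2 called 1 (4.0% of all genes). Between metastases and intestine 0 passed (0% of all genes), 2 had an unadjusted p under 0.05 (2.58% of all genes), and DESeq2 called no member (0.243% of all genes). Whether the departure from the organ differed between the sites was tested as an interaction, and 0 of 58 members passed in edgeR, with 2 at an unadjusted p under 0.05 (4.66% of all genes). All metastases lay below the single intestine library in the sum of all members, at 635 to 1098 CPM against 1185 CPM. The same held for the H2A sum, at 14.5, 34.6 and 42.8 CPM in metastases and 68.7 CPM in healthy intestine. It also held for H2B (84.3 to 131 against 189 CPM) and H3 (9.45 to 27.6 against 43.6 CPM). The H1 and H4 sums of the metastases overlapped with intestine.

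Hist1h4m was high in both healthy organs. It had 0.701, 0.532 and 1.21 CPM in orthotopic tumours against 23.9 CPM in healthy ovary, and 7.35, 12.7 and 6.51 CPM in metastases against 11.7 CPM in healthy intestine. Subcutaneous tumours had 2.21 and 0.393 CPM, the second tap 2.01, 1.32 and 0.881 CPM, the first tap 1.2, 7.90 and 1.19 CPM, and the cell line 0.715 CPM. The libraries with over 5 CPM were thus the 2 healthy organs, the 3 metastases and first tap 2. The log2 fold change of orthotopic tumours against ovary was −4.86 ± 1.03 (SE, edgeR adjusted p = 0.0595), which was not past the threshold. In the annotation Hist1h4m shares 89.8% of its 50-base words with other genes, mostly Hist1h4n. Hist1h4n itself had 15.2 to 24.2 CPM in orthotopic tumours and 19.6 CPM in ovary, and 3.99 to 13 CPM in metastases and 10.4 CPM in intestine.

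**Figure D4:**
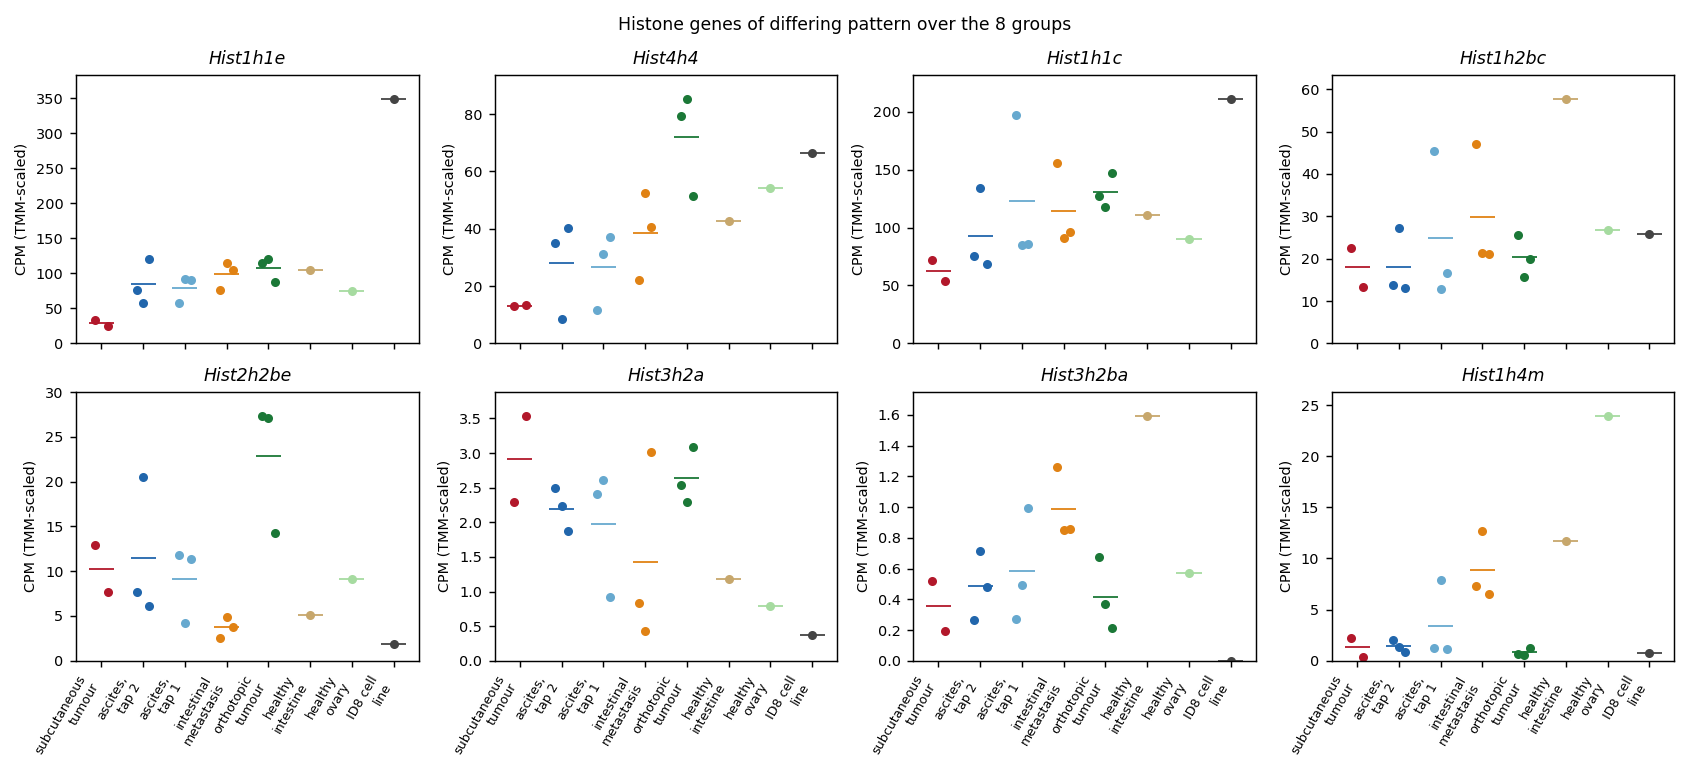
TMM-scaled CPM (vertical axes, linear, from 0) by library and group for Hist1h1e, the 6 genes reported to give polyadenylated transcripts as well, and Hist1h4m; points are libraries and lines group means. Hist1h1e is highest in the line (349 CPM), whereas Hist2h2be, Hist3h2a and Hist3h2ba are lowest there.

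The 6 members reported to give polyadenylated transcripts as well differed less between the line and the tumours in their sum. They summed to 123 and 91.8 CPM in subcutaneous tumours, 134, 193 and 130 CPM in the second tap, 268, 137 and 153 CPM in the first tap, 230, 171 and 165 CPM in metastases, 262, 249 and 236 CPM in orthotopic tumours and 306 CPM in the line. The other 59 members summed to 334 and 281 CPM in subcutaneous tumours, 855 to 1327 CPM in orthotopic tumours and 2982 CPM in the line. Against the line, the 6 had median log2 fold changes of 0.95 in subcutaneous tumours, 1.02 in the second tap, 1.1 in the first tap, 0.59 in metastases and 1.47 in orthotopic tumours.

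Within the 6, levels went in different directions. Hist1h1c, a linker gene that made up most of their reads, had 71.8 and 53.6 CPM in subcutaneous tumours, 118 to 147 CPM in orthotopic tumours and 211 CPM in the line. Hist1h2bc, an H2B gene, had 22.6 and 13.4 CPM in subcutaneous tumours, 15.6 to 25.6 CPM in orthotopic tumours and 25.9 CPM in the line, with its highest value in healthy intestine (57.7 CPM). Neither passed the threshold against the line in any group. Hist4h4, an H4 gene, had 13 and 13.4 CPM in subcutaneous tumours, 8.64 to 40.3 CPM in the second tap, 11.8 to 37.2 CPM in the first tap, 79.3, 85.3 and 51.3 CPM in orthotopic tumours and 66.4 CPM in the line, so the first 2 orthotopic tumours alone lay above the line.

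Hist3h2ba, an H2B gene, had no read in the line, which allows up to 0.0795 CPM there at 3 counts, counting error only. It had 0.521 and 0.196 CPM in subcutaneous tumours, 0.266, 0.715 and 0.477 CPM in the second tap, 0.274, 0.491 and 0.994 CPM in the first tap, 1.26, 0.849 and 0.854 CPM in metastases and 0.675, 0.366 and 0.211 CPM in orthotopic tumours. Its mean was at least 4.51-fold higher in subcutaneous tumours, 6.12-fold in the second tap, 7.38-fold in the first tap, 12.4-fold in metastases and 5.25-fold in orthotopic tumours than in the line. It rose in subcutaneous tumours (edgeR adjusted p = 0.0446), the first tap (0.0468) and metastases (0.0177). The call was lost in 2 of 7 alternatives in subcutaneous tumours and in 4 of 8 in the first tap, among them with no filter on low counts and without subcutaneous tumour 2, first tap 2 or first tap 3. In orthotopic tumours (0.0641) and the second tap (0.0507) it missed the threshold. Hist2h2be was at 12.9 and 7.66 CPM in subcutaneous tumours, 14.3 to 27.3 CPM in orthotopic tumours and 1.91 CPM in the line, and Hist3h2a, an H2A gene, at 2.3 and 3.53 CPM, 2.29 to 3.08 CPM and 0.371 CPM. Neither passed, with adjusted p from 0.0651 to 0.433 for Hist2h2be and from 0.119 to 0.238 for Hist3h2a over the 5 comparisons with the line.

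By annotated end, all classes were highest in the line. Genes whose annotation ends near the stem-loop summed to 49.5 and 36.3 CPM in subcutaneous tumours, 131 to 187 CPM in orthotopic tumours and 381 CPM in the line. Genes that run on past it summed to 333 and 255 CPM in subcutaneous tumours, 735 to 1026 CPM in orthotopic tumours and 2036 CPM in the line. By cluster, the line was not highest for Hist4, whose only member Hist4h4 is given above, or for Hist3. The 3 Hist3 members summed to 3.21 and 4.42 CPM in subcutaneous tumours, 5.00 to 5.78 CPM in orthotopic tumours and 2.07 CPM in the line. Hist1 had 378 and 296 CPM in subcutaneous tumours, 919 to 1320 CPM in orthotopic tumours and 2969 CPM in the line.

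Genes of S phase were lower than in the line as well. Of 27 such genes, 18 fell in subcutaneous tumours, 7 in the second tap, 12 in the first tap, 23 in metastases and 8 in orthotopic tumours, and none rose. The shares of all genes that fell were 3.23%, 1.27%, 1.11%, 5.63% and 0.834% in that order. In orthotopic tumours, 1 of 58 histone members fell. Mcm2, a subunit of the replicative helicase, fell by 4.21 on the log2 scale in subcutaneous tumours (edgeR adjusted p = 0.00687) and by 3.43 in metastases (0.00477). Rrm2, a subunit of the enzyme that makes deoxynucleotides, fell by 3.53 in orthotopic tumours (0.0244). The list summed to 466 and 649 CPM in subcutaneous tumours, 295 to 924 CPM in metastases, 909 to 1218 CPM in orthotopic tumours and 4029 CPM in the line. Against orthotopic tumours 1 call was made: Mcm7, of the same helicase, fell in metastases (−1.23, adjusted p = 0.0352), and no other S phase gene passed in subcutaneous tumours, either tap or metastases.

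Histone RNA was also set against S phase RNA. The ratio of the 2 sums was 0.98 and 0.57 in subcutaneous tumours, 0.81, 0.67 and 0.79 in the second tap and 1.00, 0.97 and 1.14 in the first tap. It was 2.15, 1.69 and 1.12 in metastases, 1.31, 1.46 and 1.18 in orthotopic tumours, 1.91 in healthy intestine, 1.78 in healthy ovary and 0.82 in the line. Both taps and both subcutaneous tumours thus lay below all 3 orthotopic tumours, and the second tap lay below the first. With the mitotic list as the denominator the order was looser, at 1.44 and 0.70 in subcutaneous tumours, 0.57 to 0.64 in the second tap, 0.71 to 2.15 in the first tap, 0.71 to 3.30 in metastases, 1.04 to 1.56 in orthotopic tumours and 0.70 in the line. These ratios describe the libraries and carry no test.

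**Figure D5:**
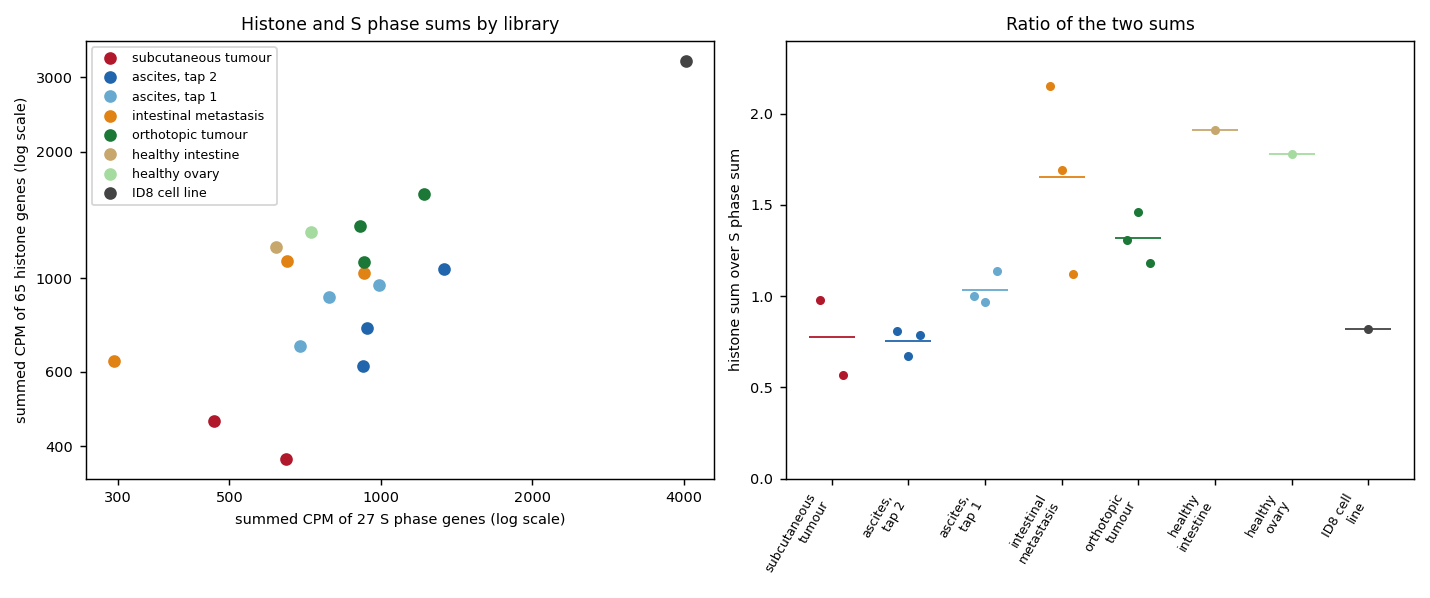
Left, summed CPM of the 65 histone genes against that of 27 S phase genes by library, both axes on a log scale; right, the ratio of the 2 sums by group (linear, from 0), with points for libraries and lines for group means. Healthy intestine and ovary have ratios of 1.91 and 1.78, and the line, the highest in both sums, has 0.82.

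Of 12 genes for the transcription and processing of histone mRNA, 2 fell in subcutaneous tumours against the line, 1 in each tap, 5 in metastases and 1 in orthotopic tumours, and none rose. Shares of all genes that fell are given with the S phase genes. Cstf2, a cleavage factor, was called in all 5 comparisons, by −1.23 in subcutaneous tumours (edgeR adjusted p = 0.0439), −1.50 in the second tap (0.0237), −1.62 in the first tap (0.0187), −1.20 in metastases (0.0267) and −1.44 in orthotopic tumours (0.0321). Slbp, which binds the stem-loop, had 25.2 and 18.7 CPM in subcutaneous tumours, 29.3, 35 and 16.6 CPM in orthotopic tumours and 53.2 CPM in the line. Npat, the activator at histone gene clusters, fell by 0.89 in metastases against orthotopic tumours (edgeR adjusted p = 0.0318), as did Lsm10 of the U7 particle, by 0.99 (0.034).

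Histone chaperones, which carry histones to DNA, fell in 6 of 12 genes in subcutaneous tumours against the line, in 8 in metastases and in 1 in the first tap. No chaperone passed the threshold in the second tap or orthotopic tumours. Shares of all genes that fell are those given with the S phase genes. Asf1b fell by 4.14 in subcutaneous tumours (edgeR adjusted p = 0.0182) and Nasp by 2.21 in metastases (0.014). Against orthotopic tumours, no chaperone gene passed in subcutaneous tumours, either tap or metastases.

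Genes listed as replication-independent histones were also measured. The 11 replication-independent genes summed to 572 and 833 CPM in subcutaneous tumours, 946, 1331 and 939 CPM in the second tap, 1363, 787 and 1108 CPM in the first tap, 858, 1047 and 1071 CPM in metastases, 1769, 1397 and 1595 CPM in orthotopic tumours and 1520 CPM in the line. Orthotopic tumours thus lay on both sides of the line. H2afz, an H2A variant, fell against the line in all 5 comparisons, at 32.7 and 22.8 CPM in subcutaneous tumours, 39.8 to 68.4 CPM in metastases, 51.8 to 71.3 CPM in orthotopic tumours and 214 CPM in the line. H3f3b, the most counted gene of the list and a source of H3.3, had 193 and 499 CPM in subcutaneous tumours, 668 to 888 CPM in orthotopic tumours and 541 CPM in the line, and was not called. H2afy2 fell by 2.65 in metastases against orthotopic tumours (edgeR adjusted p = 0.0241).

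The summed level of other RNAs without a poly(A) tail was not highest in the line. The list of small RNAs (12 in the table) summed to 150 and 193 CPM in subcutaneous tumours, 60.2, 27.9 and 95.4 CPM in the second tap, 80.7, 42.6 and 128 CPM in the first tap, 199, 435 and 260 CPM in metastases, 200, 173 and 210 CPM in orthotopic tumours and 46.3 CPM in the line. Most of it was Rn7sk and Rpph1. Of 7 tested genes, Rn7sk fell in the second tap against orthotopic tumours (−2.45, edgeR adjusted p = 0.0407), at 13.6, 15.1 and 17.8 CPM in the second tap and 95.7, 85.8 and 72.5 CPM in orthotopic tumours. In metastases against the line, Rpph1 rose (4.22, edgeR adjusted p = 0.0491), while the U12 RNA gene Rnu12 (−4.08, 0.0257) and the Y RNA gene Rny1 (0.0178) fell. Rny1 had no read in the metastases and 2.3 CPM in the line. In sum, 2 tap libraries alone had less of these small RNAs than the line, although Rny1 and Rnu12 were highest in the line.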

How the data were processed

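Per the labels' protocols, Trizol was used for extraction and a modified NEBNext Ultra II directional kit for the total RNA libraries. The deposited values are raw read counts per gene; the submitters' processing notes name HISAT, HISAT2, featureCounts and DESeq2, without versions, and both hg19 and mm39, so no coordinates are printed. The 2 deposited files held the same table. It had 1 column that matched no labelled sample and was not used here.

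Genes with over 0.5 CPM in at least 2 libraries (22671) were fitted in R 4.3.3 with edgeR 4.0.16: TMM scaling (factors 0.701 to 1.37), all 17 libraries in a single quasi-likelihood model by group with 9 residual degrees of freedom, and Benjamini-Hochberg adjustment over all genes at 0.05. There were 12 comparisons. Fits were tested on simulated data. Alternatives were DESeq2 1.42.0, other scalings, no filter, left-out libraries, a replicate block and the replicated groups alone. A count of 0 was bounded by 3 counts, counting error only.

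Members and lists were chosen with earlier results of these data known. Genes named were drawn from the 2 most abundant members of each type, up to 6 called members per direction by smallest p, the polyadenylated list, and up to 4 genes of each other list. Others, such as Hist1h2bn, Hist1h2aj, Hist1h3h and Hist1h4n, were named after their values were seen. Stem-loops were matched to the consensus of histone 3′ ends.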

Additional observations from a re-analysis of the deposited data

How the results depend on the processing

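The histone sum moved by less than the replicate spread in 90 of 92 alternatives. Many of these leave out 1 library, which can hardly shift a group mean by more than that spread. The count is therefore no check of stability for them. The sign of the log2 ratio of the sums turned where it was near 0. The second against the first tap was −0.07 as reported and −0.31 to 0.09 with 1 library left out. Orthotopic tumours against ovary were 0.05 as reported and −0.09 to 0.18. Subcutaneous tumours against the line moved from the reported −2.99 on the log2 scale to −2.76 with library totals alone and to −3.28 without the 6 polyadenylated histones. Counts of called members also depended on the setting, and the cause was not tested. Brackets give the share of all genes called, where it was worked out. Against orthotopic tumours, subcutaneous tumours had 0 called members as reported (0.0132%), 7 with no filter on low counts and 19 in DESeq2 (10.4%). They had 0 with any 1 orthotopic tumour left out (0%). The second tap had 0 as reported (1.09%), 1 with DESeq2's size factors (0.706%), 6 in DESeq2 (9.92%) and 1 with the replicated groups alone. The first tap had 0 as reported (1.58%) and 2 in DESeq2 (11.7%). Metastases had 5 as reported (15.5%), 9 in DESeq2 (26.4%) and 1 to 7 when 1 library was left out (5.36% to 18.1%). Against the line, orthotopic tumours had 1 as reported (3.2%) and 11 in DESeq2 (16.8%). They had 0 with DESeq2's size factors (3.22%), library totals alone (2.03%) or no filter. They also had 0 without the 3 libraries of most detected genes, chosen after seeing the data (5.83%), or with 1 library left out (1.37% to 1.73%). Subcutaneous tumours had 28 as reported, 14 without the 3 libraries and 13 to 19 with 1 library left out. The second tap had 12 as reported (4.43%), 5 with library totals alone (3.21%) and 34 in DESeq2 (17.3%). It had 7 without the 3 libraries (3.99%) and 1 to 10 with 1 library left out (1.54% to 3.06%). The first tap had 12 as reported (4.22%), 5 with library totals alone (3.03%) and 28 in DESeq2 (16.5%). It had 6 without the 3 libraries (4.93%) and 5 to 12 with 1 library left out (4.15% to 5.04%). Metastases had 23 as reported (15.2%) and 12 to 25 with 1 library left out (8.97% to 17.1%). Orthotopic tumours against ovary had 0 as reported (0.600%), and 1 with no filter, in DESeq2 (4.0%) and without the 3 libraries (1.27%). Hist1h4m in the second against the first tap had a log2 fold change of −1.28 as reported, which turned to 0.24 without first tap 2; leaving out 1 library gave −1.77 to 0.24. Library totals alone moved the median of all genes by −0.29 in metastases against orthotopic tumours and by 0.25 in subcutaneous tumours against the line.

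Whether replicate numbers pair the samples could not be decided. Of 26 same-numbered pairs, 7 had a correlation over 0.1 (−0.549 to 0.419), whereas 8 of 14 libraries correlated best with their own number. The correlations of the subcutaneous libraries were exact negatives of each other, so the values were not independent. The labels do not say which libraries shared an animal. With the replicate block, 5 members were called in metastases against orthotopic tumours, 4 of them among the 5 of the fit without it, and 0 in the subcutaneous tumours and both taps against orthotopic tumours and between the taps.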
